A study of Gallus gallus with 9 samples.

Results

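The 6 genes described here encode accessory subunits of the machinery that copies DNA. *POLD2* and *POLD3* belong to DNA polymerase delta, *POLE3* and *POLE4* to DNA polymerase epsilon, and *RPA2* and *RPA3* to replication protein A (RPA). They were chosen by name from the study's lists of DNA repair genes. They are 6 of 107 genes on those lists and of 24356 genes in the count tables, and all 6 had counts in every library. The question put to them was whether the subunits of one complex kept the same balance across cell types.

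The libraries came from unmodified, untreated White Leghorn chickens, in 3 groups with 3 replicates each. Primordial germ cells (PGCs), the precursors of eggs and sperm, were taken from gonads at Hamburger and Hamilton (HH) stage 28. Per replicate, 484 to 684 gonads were pooled, and the PGCs were enriched with magnetic beads against SSEA-1. EGK.X blastoderms are whole embryos of the freshly laid egg at Eyal-Giladi and Kochav stage X, with 10 pooled per replicate. Chicken embryonic fibroblasts (CEFs) were grown in culture to passage 2 from HH stage 28 embryos of day 6, with 5 embryos per replicate. The blastoderms differed from both other groups in stage as well as in cell type, and CEFs alone had been cultured, so these factors cannot be told apart. In such bulk samples, fewer cells of a type and less RNA per cell cannot be told apart either.

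At a replication fork, polymerase epsilon extends the leading strand and polymerase delta the lagging strand, while RPA coats the single-stranded DNA laid bare by the helicase. The same complexes fill the gaps left by excision and mismatch repair, and RPA is loaded on resected DNA ends in homologous recombination. From work in yeast and human cells, *POLD2* is the scaffold that holds the catalytic subunit of polymerase delta, and *POLD3* ties the complex to the sliding clamp PCNA. *POLE3* and *POLE4* are small histone-fold proteins that pair with each other, bind DNA and take part in handling histones at the fork. RPA works as a trimer of *RPA1*, the large DNA-binding subunit, *RPA2*, which is phosphorylated after DNA damage, and *RPA3*, the smallest subunit, which is needed for assembly.

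Between 29512715 and 67475925 counts fell on genes in a library. Values are given as normalized CPM, the deposited counts scaled by library size and by TMM factors, which correct for differences in RNA composition and lay between 0.739 and 1.26. *NANOG*, a pluripotency gene, was measured at 140 to 150.3 CPM in PGCs and 567 to 683 CPM in EGK.X blastoderms, and at no more than 0.0399 CPM in CEFs. *Pou5f3* was likewise higher in PGCs (157 to 207 CPM) and EGK.X blastoderms (446 to 620 CPM) than in CEFs (8.11 to 10.5 CPM). Defining markers of fibroblasts, and further markers of germ cells and gonadal somatic cells, were not looked up here. EGK.X replicate 3 stood apart from the other EGK.X libraries. Its chi-square per degree of freedom over genes was 211 and 217 against them, whereas it was 26.4 between them, and its *SOX2* level was 3.44 times their mean. CEF replicates differed from each other by 117 to 220 on that measure.

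EGK.X blastoderms had the highest mean levels of 5 of the 6 genes, and the lowest of *POLE4*. For *POLE3*, 1 of those 5, they overlapped PGCs. Relative to CEFs, *RPA2*, *RPA3*, *POLD3* and *POLD2* rose in EGK.X blastoderms by 3.42, 3.32, 2.67 and 2.31 times, and *POLE4* fell to 0.419 times the CEF level. In PGCs, none of the 6 genes was called different from CEFs, and relative to EGK.X blastoderms *POLE4* rose 3.81 times while *POLD3*, *RPA3* and *RPA2* fell. A gene was called at a Benjamini-Hochberg adjusted p under 0.05 over 22698 genes in edgeR's quasi-likelihood test and a log2 fold change beyond 1. The EGK.X blastoderms and the PGCs were compared with the same CEF libraries.

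**Figure D1:**
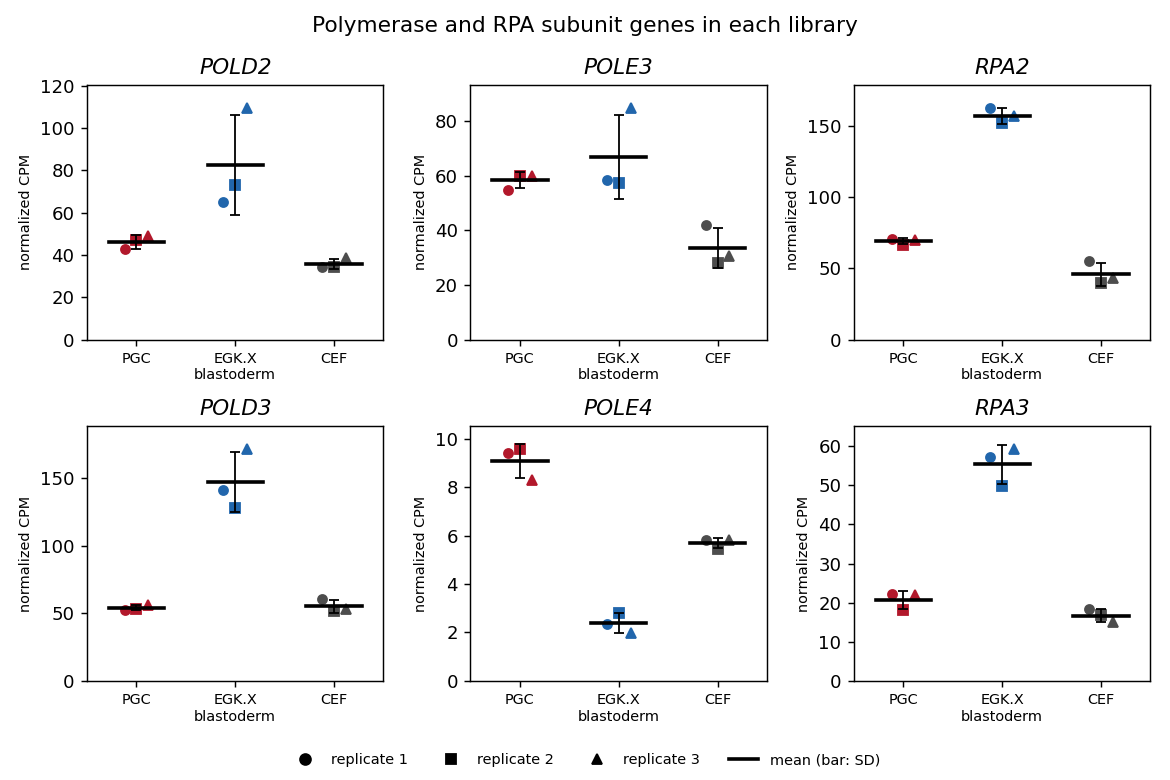
Normalized CPM (vertical axes, each starting at 0) of the 6 genes in each library of PGCs, EGK.X blastoderms and CEFs, with group means and SDs; point shapes mark replicates. EGK.X blastoderms stand highest for *RPA2*, *RPA3*, *POLD2* and *POLD3* and lowest for *POLE4* (2.39 CPM), and PGCs and EGK.X blastoderms overlap for *POLE3*.

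*RPA2* (ENSGALG00000000734, listed as RPA4 / RPA2; GRCg6a chromosome 23, 1570009 to 1573848, minus strand) had 70.9, 66.6 and 70.0 CPM in PGCs, 163, 152 and 157 CPM in EGK.X blastoderms, and 55.0, 39.6 and 43.2 CPM in CEFs. No library of any group overlapped another group, in the order EGK.X blastoderms, PGCs and CEFs. The log2 fold change between EGK.X blastoderms and CEFs was 1.77 ± 0.14 (SE, edgeR adjusted p = 4.75e-07). *RPA2* fell in PGCs relative to EGK.X blastoderms, with a log2 fold change of -1.18 ± 0.14 (edgeR adjusted p = 1.64e-05). The difference of PGCs from CEFs was 0.59 ± 0.14 (edgeR adjusted p = 0.00305), which is inside the fold threshold and was not called.

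*RPA3* (ENSGALG00000010700; chromosome 2, 24790712 to 24793994, minus strand) followed the same order of group means. It had 22.1, 18.0 and 22.0 CPM in PGCs, 57.2, 49.8 and 59.2 CPM in EGK.X blastoderms, and 18.3, 16.8 and 15.0 CPM in CEFs. The EGK.X libraries stood clear of all others, while PGC replicate 2 fell within the CEF range. *RPA3* rose in EGK.X blastoderms relative to CEFs, with a log2 fold change of 1.73 ± 0.16 (edgeR adjusted p = 1.56e-06), and fell in PGCs relative to EGK.X blastoderms, with -1.42 ± 0.16 (edgeR adjusted p = 9.87e-06). The value for PGCs against CEFs was 0.31 ± 0.16 with a 95% interval of -0.03 to 0.65 (edgeR adjusted p = 0.11).

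*POLD3* (ENSGALG00000017307; chromosome 1, 195879120 to 195909268, plus strand) was measured at 52.6, 53.3 and 56.4 CPM in PGCs, 142, 128 and 171 CPM in EGK.X blastoderms, and 60.4, 51.8 and 53.2 CPM in CEFs. PGCs and CEFs overlapped, and every EGK.X library exceeded every other library. *POLD3* rose in EGK.X blastoderms relative to CEFs, with a log2 fold change of 1.42 ± 0.14 (edgeR adjusted p = 2.96e-06). In PGCs it fell relative to EGK.X blastoderms, with -1.44 ± 0.14 (edgeR adjusted p = 3.21e-06). The log2 fold change of PGCs over CEFs was -0.03 ± 0.14, and its 95% interval ran from -0.33 to 0.27 (edgeR adjusted p = 0.893).

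*POLD2* (ENSGALG00000037932; chromosome 22, 5261832 to 5267833, plus strand) had 42.6, 47.1 and 49.0 CPM in PGCs, 65.0, 73.3 and 109 CPM in EGK.X blastoderms, and 34.1, 34.5 and 38.6 CPM in CEFs. The groups did not overlap, but the EGK.X libraries were spread widely, with replicate 3 at 1.58 times the mean of the other pair. The log2 fold change between EGK.X blastoderms and CEFs was 1.21 ± 0.19 (edgeR adjusted p = 0.000122). Without EGK.X replicate 3 it was 0.95 (edgeR adjusted p = 3.71e-05), inside the fold threshold, so the call rested on that library. The log2 fold change of PGCs was -0.84 ± 0.18 over EGK.X blastoderms (edgeR adjusted p = 0.00203) and 0.37 ± 0.18 over CEFs (edgeR adjusted p = 0.107), and neither was called. The study's table types this locus as a pseudogene, whereas RefSeq on GRCg7b types *POLD2* as protein coding and places it over *AEBP1*, a gene of the extracellular matrix. The strand setting of the counting is not given in the sources used here, and any share of *AEBP1* reads in these counts was not tested. The RefSeq models of the other 5 genes overlapped no other gene.

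*POLE3* (ENSGALG00000008873; chromosome 17, 1807509 to 1811764, plus strand) had 54.8, 60.0 and 60.0 CPM in PGCs, 58.3, 57.3 and 84.7 CPM in EGK.X blastoderms, and 41.8, 28.0 and 30.5 CPM in CEFs. PGCs and EGK.X blastoderms overlapped, and both lay above CEFs. Its log2 fold change between EGK.X blastoderms and CEFs was 1.00 ± 0.19 (edgeR adjusted p = 0.000726), just inside the fold threshold, with 2.00 times the CEF level. DESeq2 gave 1.04 and a call. The value was 0.79 without EGK.X replicate 3, and 1.19 and called without CEF replicate 1 (edgeR adjusted p = 0.000357). In PGCs relative to CEFs it was 0.80 ± 0.19 (edgeR adjusted p = 0.00344, not called). Between PGCs and EGK.X blastoderms it was -0.20 ± 0.19, with a 95% interval of -0.61 to 0.22 (edgeR adjusted p = 0.404).

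*POLE4* (ENSGALG00000031679; chromosome 28, 1000601 to 1001975, minus strand) differed in sign from its partner *POLE3* between EGK.X blastoderms and CEFs. Both had positive differences between PGCs and CEFs. Between PGCs and EGK.X blastoderms the sign of the *POLE3* difference was not settled. That difference was -0.20 (edgeR adjusted p = 0.404), and 0.01 without EGK.X replicate 3. *POLE4* had 9.42, 9.58 and 8.31 CPM in PGCs, 2.35, 2.81 and 2.00 CPM in EGK.X blastoderms, and 5.83, 5.47 and 5.81 CPM in CEFs. PGCs were highest and EGK.X blastoderms lowest, with no overlap between any groups. The underlying counts were the smallest of the 6 genes, with 662, 355 and 486 in PGCs, 155, 203 and 136 in EGK.X blastoderms, and 292, 176 and 244 in CEFs. *POLE4* rose in PGCs relative to EGK.X blastoderms, at a log2 fold change of 1.93 ± 0.24 (edgeR adjusted p = 2.35e-05). It fell in EGK.X blastoderms relative to CEFs, with -1.26 ± 0.24 (edgeR adjusted p = 0.000587). This fall was -0.75 and not called when libraries were scaled by total counts alone. That scaling raised the median of all genes by 0.50, and relative to that median *POLE4* was at -1.35 under both scalings. A change of scaling shifts all genes nearly alike, so this match was fixed in advance and is no support for the fall. For PGCs against CEFs it was 0.67 ± 0.23 (edgeR adjusted p = 0.0261, not called). The counted model spans 1375 bases on GRCg6a and the RefSeq gene on GRCg7b is longer, and how far reads outside the counted model differed between groups was not tested.

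**Figure D2:**
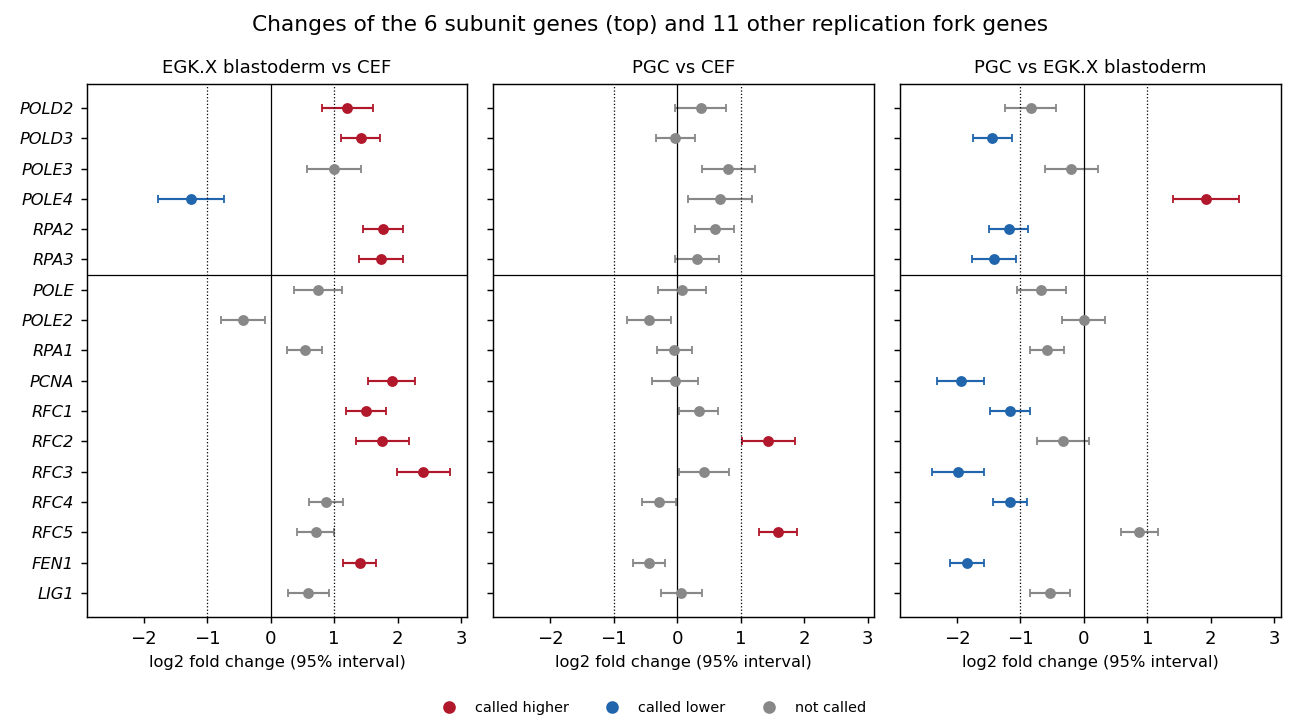
Log2 fold changes with 95% intervals (horizontal axes) of the 6 genes, above the line, and 11 other replication fork genes, below it, in the 3 comparisons; dotted lines mark the fold threshold and colours the calls. *POLE4* is the only gene above the line left of 0 in EGK.X blastoderms relative to CEFs (-1.26), and the only one right of 0 in PGCs relative to EGK.X blastoderms (1.93).

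Over the 6 genes, 4 rose and 1 fell in EGK.X blastoderms relative to CEFs, where 23.1% of all genes tested rose and 21.6% fell, 44.7% in all. All 6 had an adjusted p under 0.05 in edgeR, as did 57% of all genes, and an unadjusted p under 0.05, as did 60.9%. Their median log2 fold change was 1.31, against 0.09 for all genes tested. All 6 genes had groups that did not overlap in normalized CPM, as did 59.4% of all genes. When libraries were scaled by total counts alone, 5 of the 6 were called, each higher, and the higher share of all calls was 66.4%, against 51.7% with TMM factors.

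Between PGCs and CEFs, 0 of the 6 genes was called by edgeR, where 42.2% of all genes were called (23.7% higher and 18.5% lower), and DESeq2 also called 0. *POLE3*, *POLE4* and *RPA2*, 3 of the 6, had an unadjusted p under 0.05 in edgeR, as did 59.7% of all genes, and the same 3 had an adjusted p under 0.05, as did 55% of all genes. Their fitted differences were positive, and the median of the 6 was 0.48, against 0.05 for all genes. The groups did not overlap for 4 of the 6 genes, which compares with 65.1% of all genes. Scaling by total counts alone called 4 of the 6 higher, *POLD2*, *POLE3*, *POLE4* and *RPA2*. It raised the median of all genes by 0.68 and the higher share of all calls to 75.1%, against 56.2% with TMM factors, and it turned the uncalled *POLD3* difference to 0.66.

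Between PGCs and EGK.X blastoderms, 1 of the 6 genes rose and 3 fell, where 23.4% of all genes rose and 18.5% fell, 41.9% in all. An adjusted p under 0.05 in edgeR was reached by 5 of the 6, and by 54.7% of all genes, and an unadjusted p under 0.05 by 5 of the 6, and by 59.4% of all genes. The median of the 6 was -1.01, against 0.03 for all genes. The groups did not overlap for 5 of the 6 genes, beside 63.7% of all genes. *POLE3* was the exception, and without EGK.X replicate 3 its difference was 0.01.

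The balance within each complex was read from the ratio of counts of a pair of subunit genes in the same library, which does not depend on how libraries are scaled. Gene length also cancels when one ratio is compared between groups. Ratios are given as log2 values after adding 0.5 to each count, and a ratio does not say which of its genes moved. With 3 libraries against 3, the exact two-sided permutation test cannot go below p = 0.1. Over the 27 tests of 9 pairs in 3 comparisons, no adjusted p was below 0.123, so each separation is a description.

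The *POLE3*/*POLE4* ratio had the widest difference between EGK.X blastoderms and CEFs among the 9 pairs. It was 2.54, 2.65 and 2.85 in PGCs, 4.63, 4.35 and 5.40 in EGK.X blastoderms, and 2.84, 2.35 and 2.39 in CEFs. EGK.X blastoderms stood apart from both other groups, which overlapped each other. Between EGK.X blastoderms and CEFs the ratio was 4.79 ± 0.55 and 2.53 ± 0.27 (SD, n = 3 each), a difference of 2.27, or 4.81 times (exact permutation p = 0.1, adjusted 0.123). PGCs averaged 2.68 ± 0.16, a difference of -2.11 from EGK.X blastoderms (exact permutation p = 0.1) and of 0.15 from CEFs (exact permutation p = 0.5). Without EGK.X replicate 3, which held the highest ratio, the difference between EGK.X blastoderms and CEFs was 1.96.

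Both members were also set against *POLE*, the catalytic subunit. The *POLE4*/*POLE* ratio was -1.98, -2.06 and -2.08 in PGCs, -4.38, -4.22 and -5.27 in EGK.X blastoderms, and -2.52, -2.76 and -2.63 in CEFs. The *POLE3*/*POLE* ratio was 0.25, 0.12 and 0.13 in EGK.X blastoderms and 0.32, -0.40 and -0.24 in CEFs. These groups overlapped through CEF replicate 1, with a difference of 0.28 (exact permutation p = 0.4). The difference was 0.49 without CEF replicate 1 and 0.13 without CEF replicate 2. In PGCs the ratio was higher by 0.47 than in EGK.X blastoderms and by 0.75 than in CEFs, each without overlap. Against *POLE2*, which links the catalytic subunit to the helicase, the ratio of *POLE3* differed by more than that of *POLE4* between EGK.X blastoderms and CEFs. The *POLE3*/*POLE2* ratio was higher by 1.44 there and by 1.26 in PGCs than in CEFs, each without overlap. PGCs overlapped EGK.X blastoderms with a difference of -0.18 (exact permutation p = 1). The ratio was 0.56, 0.56 and 1.57 in the EGK.X libraries. Without EGK.X replicate 3 the difference between EGK.X blastoderms and CEFs was 1.11, and that between PGCs and EGK.X blastoderms was 0.15. The *POLE4*/*POLE2* ratio differed by -0.82 between EGK.X blastoderms and CEFs, by 1.11 between PGCs and CEFs, and by 1.93 between PGCs and EGK.X blastoderms, each without overlap. *POLE* averaged 37.5 CPM in PGCs, 59.6 CPM in EGK.X blastoderms and 35.5 CPM in CEFs, and *POLE2* 35.5, 35.6 and 48.1 CPM in the same groups. Neither was called in any comparison. The log2 fold change of *POLE* was 0.75 between EGK.X blastoderms and CEFs (edgeR adjusted p = 0.00293). It was -0.67 in PGCs over EGK.X blastoderms (edgeR adjusted p = 0.00622) and 0.08 in PGCs over CEFs (edgeR adjusted p = 0.738). For *POLE2* it was -0.44 over CEFs both in EGK.X blastoderms (edgeR adjusted p = 0.0329) and in PGCs (edgeR adjusted p = 0.0326). Between PGCs and EGK.X blastoderms *POLE2* was at -0.004 (edgeR adjusted p = 0.999).

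The *RPA2*/*RPA3* ratio differed little between EGK.X blastoderms and CEFs. It was 1.68, 1.89 and 1.67 in PGCs, 1.51, 1.61 and 1.40 in EGK.X blastoderms, and 1.59, 1.24 and 1.53 in CEFs. EGK.X blastoderms and CEFs overlapped, with a difference of 0.05 (exact permutation p = 0.8), and PGCs lay above both, by 0.24 over EGK.X blastoderms and 0.29 over CEFs. Both genes shifted relative to *RPA1*. The *RPA2*/*RPA1* ratio was -1.08, -1.15 and -1.05 in PGCs, -0.54, -0.57 and -0.35 in EGK.X blastoderms, and -1.63, -1.81 and -1.77 in CEFs. No library overlapped another group, and the ratio was 2.38 times higher in EGK.X blastoderms than in CEFs. The *RPA3*/*RPA1* ratio was 2.29 times higher in that comparison. *RPA1* averaged 148 CPM in PGCs, 220.2 CPM in EGK.X blastoderms and 152 CPM in CEFs, and was not called in any comparison. Inside the fold threshold, its log2 fold change between EGK.X blastoderms and CEFs was 0.53 ± 0.12 (edgeR adjusted p = 0.00272). In PGCs it was at -0.58 ± 0.12 relative to EGK.X blastoderms (edgeR adjusted p = 0.00169). Relative to CEFs it was at -0.05 ± 0.12 in PGCs (edgeR adjusted p = 0.789).

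The *POLD3*/*POLD2* ratio was lowest in PGCs, at 0.30, 0.18 and 0.20. It was 1.12, 0.81 and 0.65 in EGK.X blastoderms, and 0.82, 0.59 and 0.46 in CEFs, which overlapped. PGCs differed by -0.63 from EGK.X blastoderms and by -0.40 from CEFs, each without overlap (exact permutation p = 0.1). The catalytic subunit gene of polymerase delta was not analysed here.

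**Figure D3:**
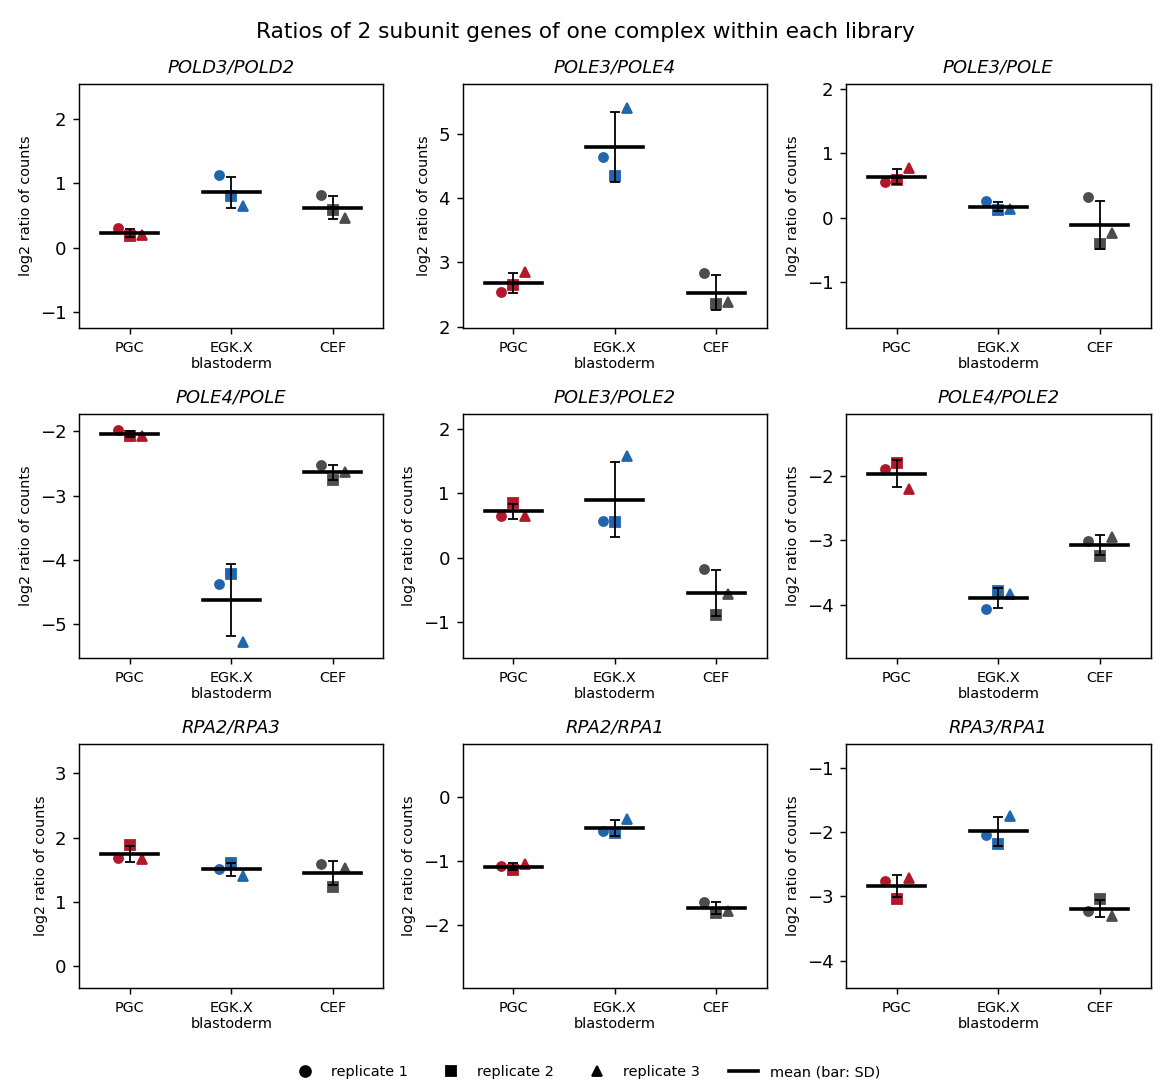
Log2 ratios of counts (vertical axes, all of equal length) of 9 pairs of subunit genes in each library of PGCs, EGK.X blastoderms and CEFs, with group means and SDs. *POLE3*/*POLE4* averages 4.79 in EGK.X blastoderms and 2.53 in CEFs, whereas *RPA2*/*RPA3* overlaps between those groups.

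Over the 9 pairs, groups did not overlap for 6 between EGK.X blastoderms and CEFs, for 8 between PGCs and CEFs, and for 8 between PGCs and EGK.X blastoderms. Among 5565 pairs of DNA repair genes, 64.3%, 67.8% and 73% did not overlap in those comparisons, in the same order. The count of separated pairs was near that background between EGK.X blastoderms and CEFs, and above it in both comparisons of PGCs. The 9 pairs share genes, and no result was drawn from these counts.

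The other fork genes on the study's lists are *POLE*, *POLE2*, *RPA1*, the sliding clamp *PCNA*, the clamp loader subunits *RFC1* to *RFC5*, the flap nuclease *FEN1* and the ligase *LIG1*. In EGK.X blastoderms relative to CEFs, 5 of these 11 rose and the other 6 were not called (median 0.87), where 23.1% of all genes rose. The largest rises were *RFC3*, with a log2 fold change of 2.41 ± 0.19 (edgeR adjusted p = 4.13e-07), and *PCNA*, with 1.91 ± 0.17 (edgeR adjusted p = 1.07e-06). In PGCs relative to CEFs, 2 of the 11 rose and 9 were not called (median 0.06), where 23.7% of all genes rose. These were *RFC5*, with 1.59 ± 0.14 (edgeR adjusted p = 8.23e-07), and *RFC2*, with 1.43 ± 0.19 (edgeR adjusted p = 3.79e-05). In PGCs relative to EGK.X blastoderms, 5 of the 11 fell and 6 were not called (median -0.67), where 18.5% of all genes fell. The largest falls were *RFC3* at -1.98 ± 0.19 (edgeR adjusted p = 2.44e-06) and *PCNA* at -1.94 ± 0.17 (edgeR adjusted p = 1.2e-06). No gene of these 11 was called lower in EGK.X blastoderms than in CEFs, where *POLE4* was. *POLE2* was also lower there, inside the fold threshold, at -0.44 ± 0.16 (edgeR adjusted p = 0.0329), while 10 of the 11 had positive differences. Among the 89 remaining repair genes 22 rose and 5 fell in that comparison, beside 23.1% and 21.6% of all genes.

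Across the 9 libraries, each gene was also set against the 106 repair genes with a count by Pearson correlation of log2 levels. The libraries form 3 groups, so these values mostly follow group means and are given as a description. *RPA2* was most like *RPA3* (r = 0.97), the helicase gene *BLM* (0.97) and the recombination gene *PALB2* (0.97). *RPA3* was closest to *RFC1* (0.99), *FAM175A* (0.98) and the glycosylase gene *NEIL2* (0.98), and *POLD3* to *NEIL2* (0.99), the end resection gene *RBBP8* (0.99) and the exonuclease gene *EXO1* (0.98). For *POLD2* they were *BLM* (0.96), the nuclease gene *MRE11* (0.96) and the mismatch gene *MSH6* (0.96). For *POLE3* they were the histone gene *H2AFX* (0.96) and *RAD54L* (0.95). *POLE4* was closest to *BABAM1* (0.95), *PARP3* (0.92) and *CUL4A* (0.91). Between *POLE4* and its partner *POLE3* r was -0.30, and between *POLE4* and *POLD3* it was -0.93, the lowest of any pair among the 6 genes.

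**Figure D4:**
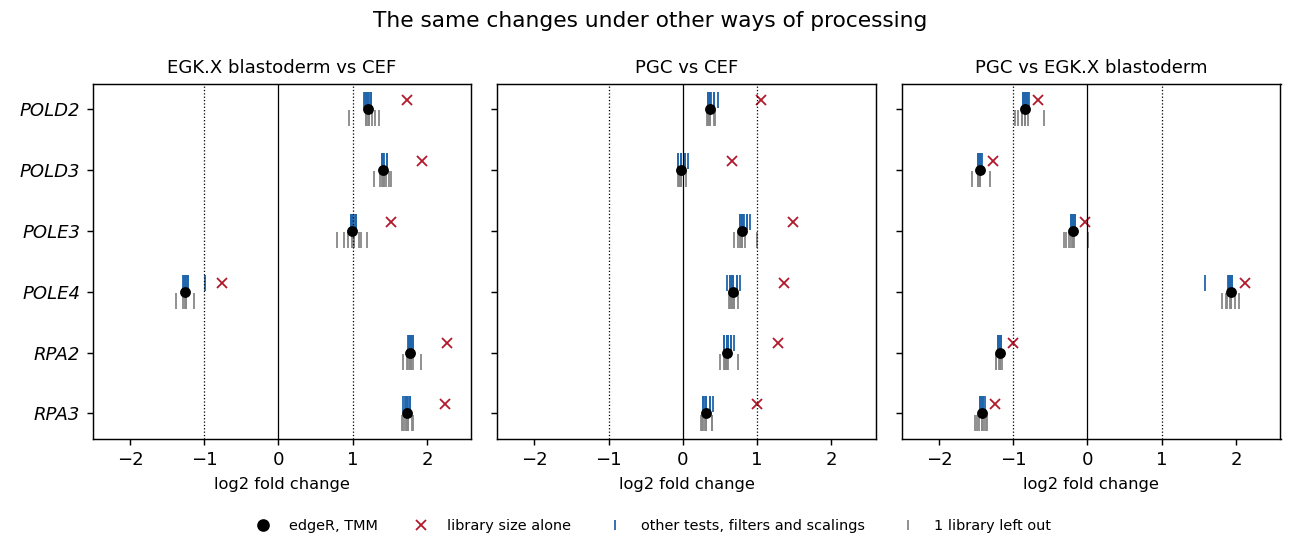
Log2 fold changes (horizontal axes) of the 6 genes in the 3 comparisons under the edgeR fit with TMM factors (dots), library size alone (crosses), other tests, filters and scalings (blue ticks) and with 1 library left out (grey ticks). Between EGK.X blastoderms and CEFs the crosses lie to the right, with *POLE4* at -0.75, and *POLE3* lies on the fold threshold at 1.00.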

How the data were processed

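Total RNA of 9 libraries was prepared with a stranded, ribosomal RNA-depleted kit. According to the methods, the authors trimmed reads with Trimmomatic 0.39, aligned them to GRCg6a with HISAT2 2.2.0, processed alignments with SAMtools 1.10 and obtained counts per Ensembl gene from HTSeq. The deposited counts are whole numbers per gene. The deposited normalized matrix is a signal per gene, made by the authors as TMM-adjusted CPM, and recomputation differed by at most 3.25e-06%. Between 46.6% and 51.5% of records were not assigned to a gene for any reason and were left out. Of all records, 26.6% to 27.8% fell outside genes in EGK.X blastoderms, 32.9% to 36.2% in CEFs and 33.8% to 36.2% in PGCs.

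All 22698 genes with a count were fitted over all libraries with edgeR 4.0.16 (R 4.3.3, TMM factors, prior count 0.125, no replicate block, quasi-likelihood test, Benjamini-Hochberg adjustment). Standard errors were taken from the F statistic, as the size of the estimate divided by the root of F, and 95% intervals use the t quantile at the test's degrees of freedom. Nothing in the labels says more of the replicates than the pools of animals, so p-values measure the spread between those pools. The scripts were tested on simulated data.

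All 6 members are named, with the 2 largest called rises and falls among the other fork genes in each comparison, the other subunits of their complexes, and the 3 genes most like each member, of which 1 is not reported here. Members and lists were chosen with earlier results of these data known. Alternatives were DESeq2 1.42.0, limma 3.58.1 on log2(normalized value + 1 or 0.1), the likelihood ratio test the study names, other scalings and filters, a replicate block and leaving out each library. Gene types, overlaps and RefSeq symbols came from the study's gene table and RefSeq on GRCg7b, where all 6 matched. Coordinates are those of the study's table.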

Additional observations from a re-analysis of the deposited data

How the results depend on the processing

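No alternative reversed a called change, and *RPA2*, *RPA3* and *POLD3* were called in every alternative between EGK.X blastoderms and CEFs, with log2 fold changes of 1.68 to 2.28, 1.66 to 2.24 and 1.29 to 1.93. Of the 6 genes, 5 were called in that comparison, 3 with edgeR's glmTreat, which tests against the fold threshold and dropped *POLD2* and *POLE4*, and 4 to 6 with 1 library left out. *POLE4* was at -0.99 and not called with limma at a pseudocount of 1. *POLE3* ranged from 0.79 to 1.51 and was called in 10 settings. Between PGCs and CEFs, 0 of the 6 were called, 4 with library size alone, 3 with adjusted p alone, and 0 without any one library. Between PGCs and EGK.X blastoderms 4 were called, also with any library left out, and glmTreat dropped *RPA2*. Of the 11 other fork genes, 5 were called between EGK.X blastoderms and CEFs, 10 with library size alone and 11 with adjusted p alone. Of those 11, 10 were higher and 1 was lower. Between PGCs and CEFs 2 were called, and 4 under each of those settings. Between PGCs and EGK.X blastoderms 5 were called, 9 with adjusted p alone and 3 with glmTreat. With adjusted p alone, 57%, 55% and 54.7% of all genes passed in these 3 comparisons, in the same order. The shares of all genes called with library size alone or glmTreat are not given here, so those counts are only a description. With 1 library left out, 6 to 8, 8 to 9 and 8 to 9 of the 9 ratios separated in the 3 comparisons. Deviations of replicates with the same number in 2 groups had correlations of -0.17 to 0.23, and those with different numbers -0.24 to 0.26. With 3 replicates per group, these values cannot show whether replicates shared a batch. With a replicate block, 5, 0 and 4 of the 6 genes and 5, 2 and 5 of the fork genes were called, and the block changed none of these counts. Exact paired sign-flip permutation tests of the ratios cannot go below p = 0.25. The *POLE4*/*POLE2* difference moved to -0.55 between EGK.X blastoderms and CEFs, and to 1.57 between PGCs and EGK.X blastoderms, with normalized values and a pseudocount of 1. A pseudocount of 1 is large beside *POLE4*, which averaged 2.39 CPM in EGK.X blastoderms, 5.70 CPM in CEFs and 9.10 CPM in PGCs. *POLE2* averaged 35.6, 48.1 and 35.5 CPM in the same groups. Beyond these values, the causes of the shifts were not tested.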
